A study of Mus musculus with 148 samples.

Results

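Regulatory T cells (Tregs) were the 206 sorted cells that carried the T_Treg label in the deposited cell table, out of 24020 labelled cells, 23425 immune cells and 6846 cells with any T label. They came from 37 of 63 samples and 23 mice, and a sample is here the set of cells of 1 mouse and 1 tissue. Female C57/b6 PA-GFP mice, which carry a photoactivatable green fluorescent protein, received cells of the EO771-tdTomato breast cancer line in the right inguinal mammary gland at 8 weeks of age, and tumors were resected 3 weeks later in the mice that were followed for metastasis. The tissues were the primary tumor (Primary, 4 mice), control lungs (Normal, 3), lungs of tumor-bearing mice taken before resection (Pre-MET, 3), lungs of resected mice without metastases (Relapse-free, 6), and, from mice with lung metastases, a dissected metastasis-bearing lung section (MET, 13), a lung section away from it (Distal normal tissue, 14), and the photoactivated center (MET Core, 13) and border (MET Invasive margin, 7) of a lesion. Sections, whole lungs and tumors were sorted as CD31-CD45+ cells, and photoactivated tissue as CD31-GFP+ cells, except that the MET Core of mouse 17 carries the gate CD31neg_PA_CD45. The photoactivation target of the MET Invasive margin of mouse 17 is labelled NON-MET, and its sample was used under its status label. Tumors and lungs were dissociated with different programs, so that dissociation and organ cannot be told apart. All tumors stem from 1 tumor cell line, and the plate assay counts the 3' ends of transcripts as unique molecular identifiers (UMIs).

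Tregs are CD4+ T cells that restrain other immune cells. The transcription factor Foxp3 defines them, the interleukin-2 receptor chain Il2ra (CD25) lets them take up interleukin-2, and the checkpoint receptor Ctla4 competes for the co-stimulatory ligands of antigen-presenting cells. Activated Tregs in tissues and tumors are known for tumor necrosis factor receptors such as Tnfrsf4 (OX40), Tnfrsf18 (GITR) and Tnfrsf9 (4-1BB).

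The Tregs held 478375 UMIs in all. A cell had between 501 and 21397 UMIs, with a median of 1495.5, and 145 of the 206 cells reached 1000. The 81 cells of primary tumors had a median of 2084 UMIs, the 116 cells of metastasis-bearing lung tissue 1316, and the 9 cells of lungs and lung sections without metastasis 834. At such depths a cell without a UMI of a gene may still express it. Intervals cover counting error only.

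Each of the 3 markers of the label was seen in a minority of Tregs. Over all tissues, each share was still above that of every other T label. Foxp3 (mm10, chromosome X, 7573644 to 7595245) had a UMI in 54 of 206 Tregs (26.2%, 95% exact binomial interval 20.3 to 32.8%). Il2ra (chromosome 2, 11642807 to 11693193) was seen in 47 Tregs (22.8%), and Ctla4 (chromosome 1, 60887000 to 60915832) in 75 (36.4%). A UMI of at least 1 of the 3 was present in 115 cells (55.8%), and of at least 2 in 50 cells (24.3%). Tnfrsf4 was seen more often than any of the 3, in 167 cells (81.1%), as were Tnfrsf18 in 148 (71.8%) and Ikzf2, which encodes the Treg transcription factor Helios, in 110 (53.4%).

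In the 6 other T labels, Foxp3 was seen in at most 1.8% of cells, in CD4 S100a4, and in 0.7% of CD4 Lef1 cells. Ctla4 reached 11.5% in CD8 Lag3 cells, and Il2ra 6.4% in CD4 S100a4 cells. These shares join all tissues, and 538 of the 903 CD4 S100a4 cells came from lungs without metastasis, against 9 of 206 Tregs. Within samples, Il2ra and Ctla4 were closer to CD4 S100a4 cells, as given with the sums below. B cells, which should lack these genes, gave 0 of 1055 cells for Foxp3 (exact upper bound 0.349%), 1 for Il2ra and 4 for Ctla4 at a median of 1001 UMIs. Neutrophils gave 3, 1 and 6 of 3972 cells at a median of 989 UMIs. Thinned to 500 UMIs a cell, Tregs still led, with Foxp3 in 11.7%, Il2ra in 11.7% and Ctla4 in 18.4% of cells.

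The lineage genes went with the label as well. A UMI of a Cd3 chain or a T cell receptor constant gene was present in 190 Tregs (92.2%). Cd4 was seen in 53 Tregs (25.7%), against 7.7% of CD4 Lef1 and 7.6% of CD4 S100a4 cells. Cd8a was seen in 4 Tregs (1.9%), all in metastasis-bearing lung tissue, against 13.6% of CD4 Lef1 cells and 58.8% of CD8 Lag3 cells. These shares describe the label and test nothing, since it was made from the same counts.

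**Figure D1:**
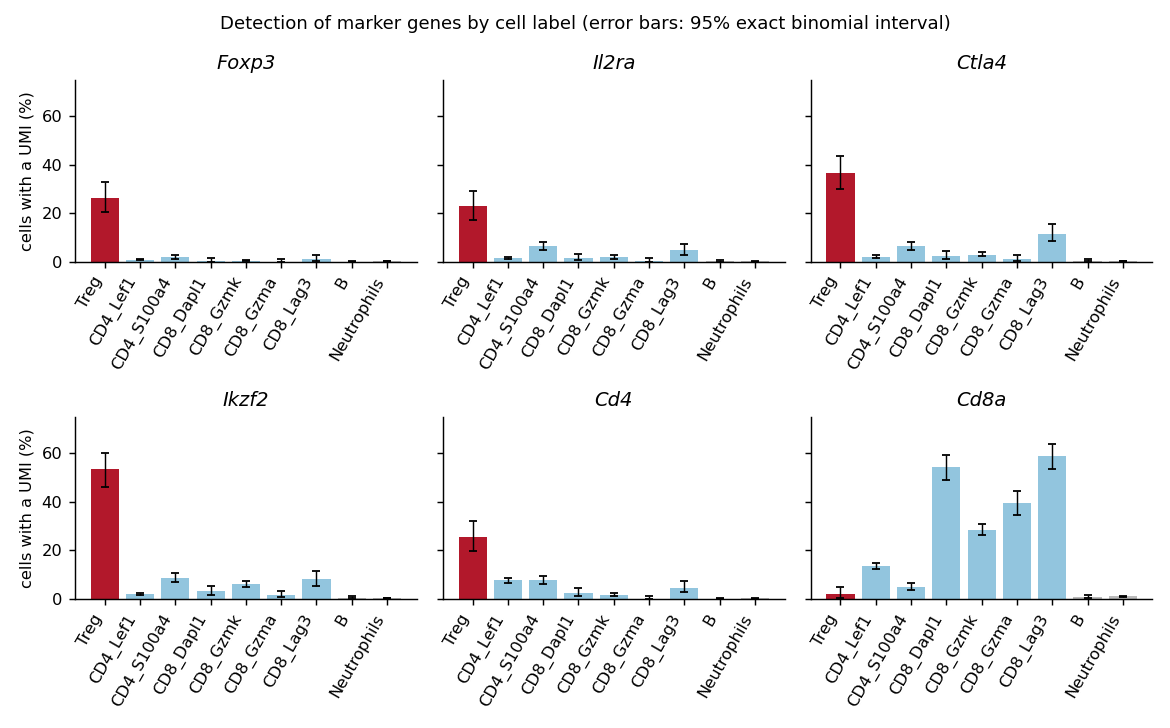
Share of cells with at least 1 UMI (vertical axis, percent) of 6 genes in Tregs (red), the 6 other T labels (blue), and B cells and neutrophils (grey), over all tissues and without thinning. Error bars are 95% exact binomial intervals. Foxp3, Il2ra, Ctla4, Ikzf2 and Cd4 were highest in Tregs, and Cd8a was seen in 1.9% of them.

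The share of Tregs with a UMI of any of these markers differed between the tissues, which is given over cells and without a test. In primary tumors, 60 of 81 Tregs (74.1%) had a UMI of Foxp3, Il2ra or Ctla4, and in metastasis-bearing lung tissue 54 of 116 (46.6%). After thinning to 500 UMIs the shares were 46.9% and 29.3%. These shares join the markers and do not show whether Foxp3 alone differed at equal depth. Of the 9 Tregs of lungs without metastasis, 1 had a Ctla4 UMI and none had a UMI of Foxp3 or Il2ra, and 0 of 9 has an exact upper bound of 33.6%. Of the same 9 cells, 5 had a Tnfrsf4 UMI, 4 an Ikzf2 UMI, 4 a Tnfrsf18 UMI and 5 a Cd3 or T cell receptor UMI.

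Cells with a Foxp3 UMI were also present outside the label. Of 101 T-labelled cells with a Foxp3 UMI, 54 (53.5%) were labelled Treg and 47 (46.5%) carried another T label. In primary tumors 28 of 39 such cells (71.8%) were labelled Treg, and in metastasis-bearing lung tissue 26 of 45 (57.8%). In lungs without metastasis none of 17 was, and 10 of the 17 were CD4 Lef1 cells (58.8%), a label named after a transcription factor of naive T cells. The 47 cells had a median of 1497 UMIs, and the 54 cells labelled Treg 2448.5.

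The 47 Foxp3-bearing cells with other labels held further Treg genes more often than CD4 cells without Foxp3 did. Ikzf2 was seen in 19 of them (40.4%), Tnfrsf18 in 18 (38.3%), Tnfrsf4 in 16 (34.0%) and Ctla4 in 15 (31.9%). In the 3891 cells of both CD4 labels without a Foxp3 UMI, at a median of 945 UMIs, these shares were 3.2, 9.3, 1.8 and 2.7%. Tregs without a Foxp3 UMI had Tnfrsf4 in 121 of 152 cells (79.6%) and Tnfrsf18 in 102 (67.1%). The depths of these sets differ, and these shares were not thinned.

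**Figure D2:**
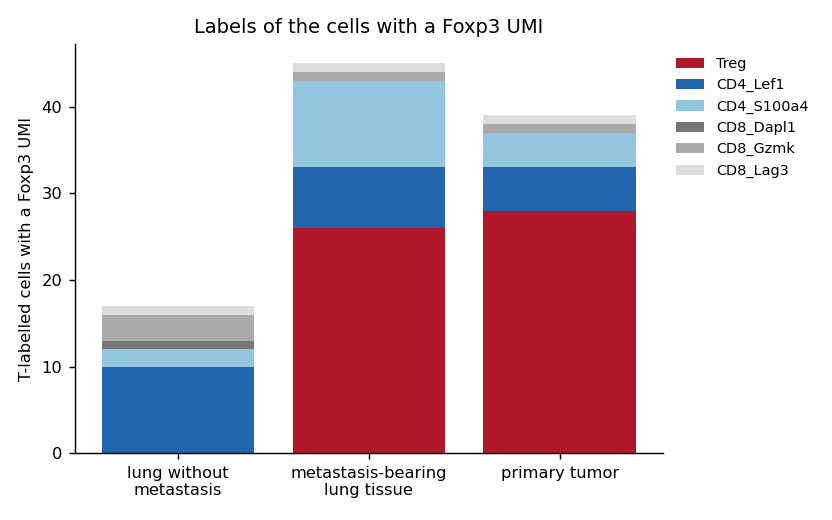
Number of T-labelled cells with a Foxp3 UMI (vertical axis) in lungs without metastasis, metastasis-bearing lung tissue and primary tumors, stacked by the label of the cell. Of 17, 45 and 39 such cells, 0, 26 and 28 were labelled Treg.

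To describe expression across genes, the UMIs of Tregs were summed per sample where a sample held at least 5, which gave 11 sums from 9 mice: 4 of primary tumors and 7 of metastasis-bearing lung tissue, 3 of the latter from mouse 36. Each was set against the mean of the other T labels with at least 5 cells in the same sample, between 3 and 6 labels, as log2(CPM + 10), where CPM is a gene's UMIs scaled to 1e+06 UMIs of the sum. No test was made, because the labels came from clustering the same cells on their expression. Of 27970 genes with a UMI in these sums, 28 were higher in Tregs in all 11 samples (0.100%) and 28 were lower in all 11 (0.100%).

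Tnfrsf4 led the genes that were higher in every sample. Its level in Tregs was between 1984 and 4126 CPM, with a median of 2590, while the 53 sums of other T labels reached at most 1657 CPM, in CD8 Lag3 cells, with a median of 46.4. The Treg and the other sums did not overlap, and the median difference was 5.41 on the log2 scale (range 4.39 to 7.56). Tnfrsf18 did not overlap either, with 2140 to 4379 CPM in Tregs and up to 1960 CPM in the other labels, and a median difference of 3.50. Tnfrsf9 had 471 to 2397 CPM in Tregs and up to 1623 CPM in CD8 Lag3 cells, with a median difference of 4.95. By median, the next highest label was CD8 Lag3 for Tnfrsf4 (162 CPM) and Tnfrsf9 (601 CPM) and CD4 S100a4 for Tnfrsf18 (802 CPM).

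Tnfrsf4 and Tnfrsf18 lie side by side on chromosome 4 (156013843 to 156016612 and 156026164 to 156028895, both on the forward strand). Sdf4, which encodes a calcium-binding protein of the Golgi, was among the 12 genes with the largest median differences of those that were higher in all 11 samples (median difference 2.25, 1482 to 4620 CPM in Tregs). It ends 232 bases before the start of Tnfrsf4 on the same strand, and whether reads of Tnfrsf4 were counted for it was not tested.

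The others of the 12 were Bmyc, a Myc relative (median difference 3.82), Samsn1, a signaling adaptor that restrains lymphocyte activation (3.30), Cd4 (2.91), the plakophilin Pkp3 (2.35), Odc1, the first enzyme of polyamine synthesis (2.31), Gm7993 (2.30), the kinase Map2k3 (2.24) and Crem, a cAMP-responsive transcription factor (1.99). Gm7993 is a processed pseudogene that shares 51.8% of its 31-base words with Odc1, so that reads of the pair may have been split between them. Of the genes that were lower in all 11 samples, the 6 with the lowest medians were Cd8a (-4.58), the killer receptor Klrk1 (-4.31), Ly6c2, a surface protein of memory and effector T cells (-3.75), Ugcg, an enzyme of glycolipid synthesis (-2.82), perforin (Prf1, -2.74) and the inhibitory receptor Klrc1 (-2.72). Tregs held 2 UMIs of Cd8a, 4 of Klrk1, 3 of Prf1 and 1 of Klrc1 in these 11 sums.

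Among the markers, Foxp3 was higher in Tregs in 10 of 11 samples and at 0 in the MET Core of mouse 25, where the Treg sum held 8441 UMIs. Its level was between 0 and 2480 CPM with a median of 262, and the other labels reached 111 CPM. Ctla4 was higher in 9 samples (median difference 3.61) and Il2ra in 9 (3.06). The cases in which a marker was not higher were sums of lung Tregs, and all 4 primary tumor sums were higher for all 3 markers.

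Lists of genes are given by the sign of these medians, as a description. Of 19 genes of Treg identity, 14 had a median difference above 0 and 1 below. The former include Ikzf2 (3.23, higher in 10 samples and lower in 1) and the actin-capping protein Capg (2.15, higher in 10), and the latter was Entpd1, the ectonucleotidase CD39 (-0.70, lower in 8, and 0.0867 in the primary tumor sums alone). Tnfrsf18 was the 1 member that was higher in all 11 samples. Of 28 genes of effector Tregs, 21 were above 0 and 1 below, and 4 were higher in all 11 samples. Ccr8, a chemokine receptor of tumor Tregs (3.31), and Ebi3, a subunit of interleukin-35 (3.15), were higher in 10 of 11 samples. Of 14 genes of naive and recirculating T cells, 13 were below 0, such as the transcription factors Lef1 (-2.36) and Tcf7 (-1.33) and the egress receptor S1pr1 (-0.86, and 0.25 with 10 or more cells of both labels). Ccr7, the chemokine receptor for lymph node homing, was at 0.24, higher in 6 samples and lower in 5, and turned to -0.19 with a pseudocount of 50 and to -0.50 in the lung sums alone. Over all 27970 genes 2413 medians were above 0 and 5846 below, the rest at 0. Among the 1930 genes with a mean of at least 100 CPM over Tregs and other labels, the median difference was 0.32. Of the 16 genes of co-stimulation and checkpoints 13 were above 0, including the co-stimulatory receptor Icos (2.31) and the inhibitory receptor Tigit (2.88), both higher in 10 samples. Of 86 ribosomal protein genes measured, 62 were below 0, and their median was -0.33.

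These differences are against a mean over CD4 and CD8 labels, and several were smaller against CD4 S100a4 cells alone, which were present in all 11 samples. In primary tumors, a Cd3 or T cell receptor UMI was seen in fewer CD4 S100a4 cells than Tregs, as given with the last comparison. Of the 22 genes named here with a median above 0, 14 had a median difference above 1 from CD4 S100a4 and 8 did not. Among the latter, Ctla4 was at 0.80, Icos at 0.28, Odc1 at 0.25, Capg at 0.19, Il2ra at 0 and Ccr7 at -1.16. Tnfrsf9 (4.61), Tnfrsf4 (4.49), Bmyc (3.75), Tigit (3.34), Ebi3 (3.26) and Foxp3 (2.67) had the largest differences from CD4 S100a4 among the 22. Of the 6 lowest genes, Cd8a, Prf1 and Klrc1 were at 0 against CD4 S100a4. Against CD4 Lef1 cells Ccr7 was at -2.84 and S1pr1 at -3.77. Entpd1 was at 0 against both CD4 labels and CD8 Dapl1. It was at -1.64 against CD8 Gzmk, -2.36 against CD8 Gzma and -2.86 against CD8 Lag3.

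**Figure D3:**
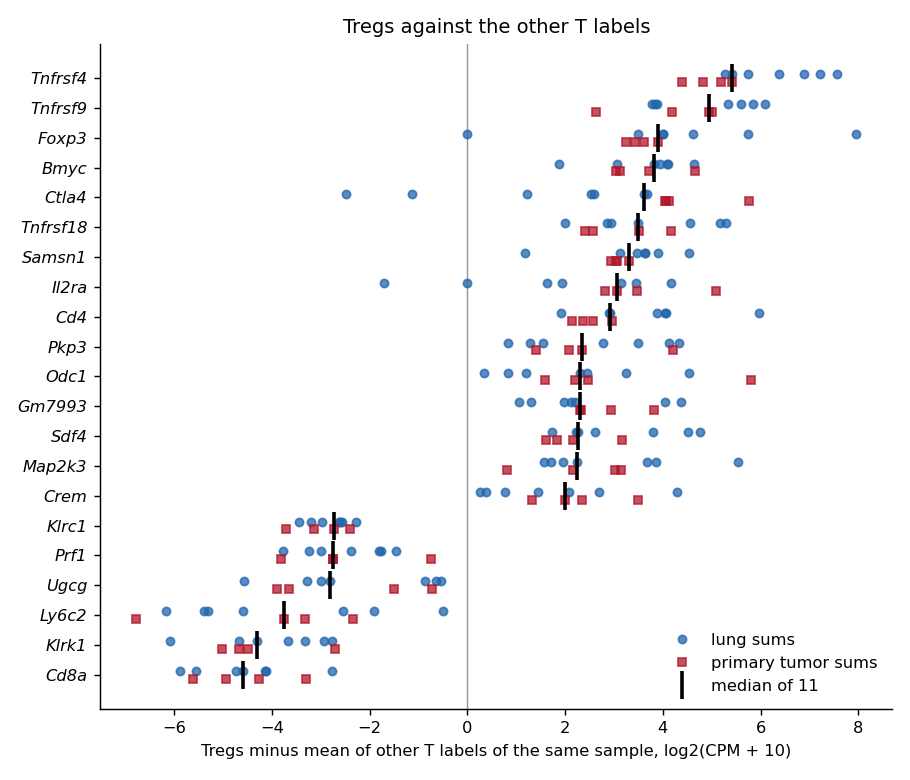
Difference between Tregs and the mean of the other T labels of the same sample, as log2(CPM + 10) (horizontal axis), for the 3 markers and for the 12 highest and 6 lowest genes with 1 sign in all 11 samples. Blue circles are 7 lung sums, red squares 4 primary tumor sums and black bars the medians. Tnfrsf4 was at least 4.39 higher in each sample, and 2 lung sums were below 0 for Ctla4.

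The share of Tregs among T cells was then compared between tissues, over samples with at least 5 T-labelled cells. In the 4 primary tumors, Tregs were 33.8, 20.3, 13.8 and 18.2% of T cells (mice 8, 9, 10 and 38), a mean of 21.5% ± 8.64 (SD, n = 4). In MET Core samples they were 6.32% ± 4.29 (SD, n = 13), with a median of 5.64% and a highest value of 15.4%. In MET samples they were 4.07% ± 6.65 (SD, n = 13), and in MET Invasive margin samples 2.67% ± 2.95 (SD, n = 7). The lowest primary tumor was above 12 of the 13 MET Core and 12 of the 13 MET samples.

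Primary tumors exceeded MET Core by 15.2 percentage points (two-sided exact permutation test, p = 0.00084, adjusted p = 0.00252 over 6 comparisons of shares). They exceeded MET by 17.5 points (exact permutation test, p = 0.00168, adjusted p = 0.00336). Only 1 sequencing batch held both tissues: there the tumor of mouse 8 had 33.8%, 2 MET Core samples 5.84 and 12.9%, and 2 MET samples 4.49 and 4.65%. Besides these samples, whose T cells all came from that batch, the MET samples of mice 31 and 32 were spread over 2 batches, with 5 of 69 (7.25%) and 4 of 84 (4.76%) T cells as Tregs in the shared batch. With 1 tumor in that batch, no test within it was made. With cells of at least 1000 UMIs alone, primary tumors exceeded MET Core by 12.9 points and the test was not passed (exact permutation test, adjusted p = 0.125, n = 4 and 10). Counted over Tregs and CD4 labels, the shares were 29.1% in primary tumors and 15.6% in MET Core (exact permutation test, adjusted p = 0.0413). Organ, dissociation, tumor resection, time since injection and, for MET Core, the sort gate differ with the tissue and cannot be told apart from it.

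Cells with the Treg label were rare in lung tissue without a metastasis. None of them had a Foxp3 UMI there, and the 17 T cells there with a Foxp3 UMI carried other labels. Shares counted by Foxp3 UMIs are given below. In all, 9 of 4046 T cells (0.222%, 95% exact interval 0.102 to 0.422%) were Tregs in the Normal, Pre-MET, Relapse-free and Distal normal tissue samples, against 116 of 2396 (4.84%, 4.02 to 5.78%) in metastasis-bearing tissue. A Treg was found in 8 of 26 samples of the former and in 25 of 33 of the latter. The intervals cover counting error only and test nothing over mice, and mouse 36 alone gave 39 of the 116 Tregs. In the 3 mice with both a primary tumor and Pre-MET lungs, the lungs held 0 of 98, 1 of 110 and 1 of 82 T cells as Tregs (mice 8, 9 and 10), and 0 of 98 has an exact upper bound of 3.69%.

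Within mice, MET exceeded Distal normal tissue in 8 of 13 and was lower in none (mean difference 3.93 points, exact sign-flip permutation test, p = 0.00781, adjusted p = 0.0117). Without mouse 23, whose MET sample held 3 Tregs among 12 T cells, the difference was 2.18 points and the MET mean 2.32% (exact permutation test, adjusted p = 0.0234). MET Core exceeded Distal normal tissue in 12 of 13 mice and was lower in none (mean difference 6.19 points, exact sign-flip permutation test, p = 0.000488, adjusted p = 0.00252). Within the same sequencing batch MET was higher in 5 of 9 mice and MET Core in 11 of 12, and lower in none. Distal normal tissue was at 0 in every mouse but mouse 37, so that a lower value was possible in that mouse alone. Some of these zeros rest on few T cells, such as 0 of 7 in mouse 24 (exact upper bound 41.0%) and 0 of 11 in mouse 32 (28.5%).

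Within lesions the differences did not pass the test. MET Core exceeded MET in 8 of 12 mice and was lower in 4 (exact permutation test, p = 0.161, adjusted p = 0.193). MET Core exceeded MET Invasive margin in 3 of 6 mice and was lower in 2 (mean difference 1.55 points, exact permutation test, p = 0.312). That difference was 0.863 without mouse 26 and 2.40 without mouse 36, and with cells of at least 1000 UMIs it was -2.81, with 1 of 3 mice higher and 2 lower. Without mouse 17, whose margin sample carries the target label NON-MET, the difference was 0.967, with 2 of 5 mice higher and 2 lower. MET Core against MET passed without mouse 23 (adjusted p = 0.0281, exact permutation test). It also passed when Tregs were counted over all immune cells (1.86 against 0.540%, adjusted p = 0.00366, exact permutation test, n = 12) and over Tregs and CD4 labels (15.8 against 6.85%, adjusted p = 0.0146, exact permutation test, n = 12). The photoactivated cores were sorted by another gate than the sections.

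**Figure D4:**
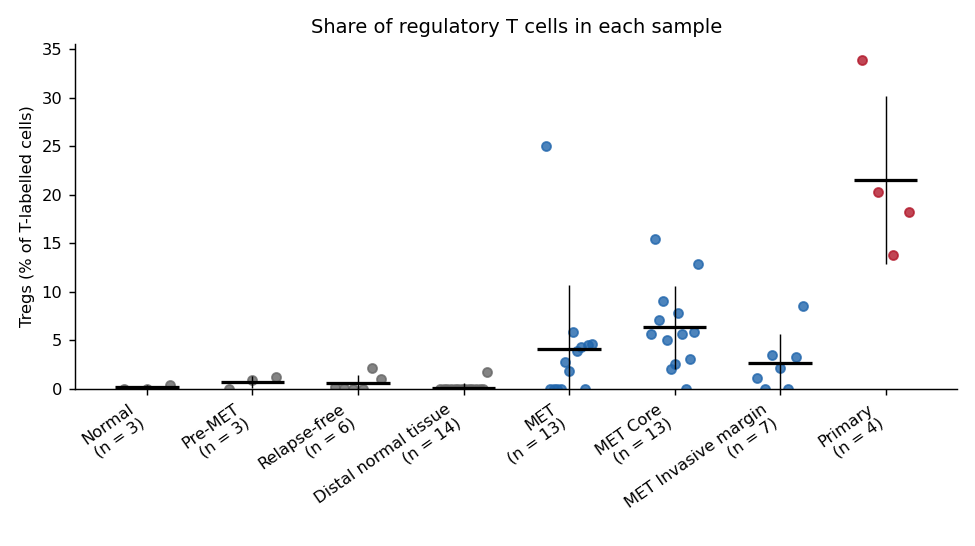
Tregs as a percentage of T-labelled cells (vertical axis) in each of 63 samples, by tissue. Points are samples, horizontal lines means and vertical lines 1 SD cut at 0. The 4 primary tumors lie between 13.8 and 33.8%, and 13 of 14 Distal normal tissue samples lie at 0.

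The shares were also counted without the label, as any T cell with a Foxp3 UMI. By this count, primary tumors had 9.89% ± 2.83 (SD, n = 4) and MET Core 1.89% ± 2.25 (SD, n = 13; exact permutation test, p = 0.00042, the smallest that this design allows). The count was not thinned. T cells without the Treg label had a median of 1996 UMIs in primary tumors and 931 in metastasis-bearing tissue, and Tregs 2084 and 1316. The part of depth in this difference was not tested. MET had 0.993% and Distal normal tissue of the same 13 mice 1.06% (exact permutation test, p = 0.922). MET Core had 1.89% and Distal normal tissue 0.795% (exact permutation test, p = 0.133). Distal normal tissue held 6 cells with a Foxp3 UMI in all, none of them labelled Treg, and 1 such cell weighs heavily where T cells are few, as with the highest share of 5.26% among 19 T cells in mouse 23. The means over mice thus weigh single cells unequally. Added up over samples, 17 of 4046 T cells of tissue without metastasis (0.420%, exact interval 0.245 to 0.672%) and 45 of 2396 T cells of metastasis-bearing tissue (1.88%, 1.37 to 2.51%) had a Foxp3 UMI. These intervals cover counting error only and test nothing over mice. The former tissue includes Normal, Pre-MET and Relapse-free lungs of other mice. Distal normal tissue alone had 6 such cells among 808 T cells, MET 11 among 668 and MET Core 25 among 1220.

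The next comparison asked whether Tregs of the primary tumor and of the lung express different genes. Lung sums of a mouse were added up, so that 4 primary tumor mice (81 cells) stood against 5 lung mice (76 cells), and all 5 lung sums came from metastasis-bearing tissue. Of 930 genes tested with edgeR's quasi-likelihood test, 0 passed an adjusted p of 0.05 (0% called), and 53 (5.70%) had an unadjusted p below 0.05. DESeq2 called 0 of 13620 genes, with 267 at an unadjusted p below 0.05. The sums of 8441 to 103208 UMIs limit what can be seen. The tumors of mice 9, 10 and 38 came from a sequencing batch without lung sums, where batch and tissue cannot be told apart. A fit with batch as a term takes its difference from the tumor of mouse 8 and the lungs of mice 31 and 36. Dissociation, tumor resection and time since injection also differ with the tissue here and cannot be told apart from it.

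The 10 genes with the smallest unadjusted p are described as values, and none of them passed. Gzmb, the cytotoxic protease granzyme B that activated Tregs can also carry (chromosome 14, 56258838 to 56262260), had 1063, 1140, 1596 and 814 CPM in the primary tumors of mice 8, 9, 10 and 38. In the lung Tregs of mice 17, 25, 30, 31 and 36 it had 141, 0, 0, 496 and 189 CPM. The groups did not overlap, and the log2 difference was 2.76 ± 0.63 (SE, edgeR adjusted p = 0.192). Gzmb passed in 3 other settings: with MET Core as the only lung tissue (3.31, edgeR adjusted p = 0.0492), with cells thinned to 500 UMIs (3.74, edgeR adjusted p = 0.000738, 92 genes tested) and without lung mouse 31 (3.16, edgeR adjusted p = 0.04995). Over 20 settings its log2 difference was between 1.78, with sequencing batch as a term, and 3.74, and the edgeR or DESeq2 adjusted p between 0.000738 and 0.917. Groups did not overlap, with the primary tumor higher, for 20 of 930 genes (2.15%), and with the primary tumor lower for 3 (0.323%).

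Cd74, the invariant chain of MHC class II, had 835, 974, 949 and 949.5 CPM in the primary tumors and 46.9, 0, 0, 0 and 430 CPM in the lungs. All tumors were above all lungs (log2 difference 2.64 ± 0.74, SE, edgeR adjusted p = 0.404), and without lung mouse 36 the difference was 4.96 with an edgeR adjusted p of 0.00465. Over 19 settings it was between 1.40 and 4.96 with adjusted p between 0.00465 and 0.995 (edgeR or DESeq2), and it passed in that setting alone. Cd74 is abundant in B and myeloid cells. The 6 B cell genes listed summed to 497 to 992 CPM in tumor Tregs and 0 to 711 CPM in lung Tregs, and the defining gene Cd79a was at 0 in all sums, with Igkc at 173 to 456 and 0 to 309 CPM. The 12 myeloid genes listed summed to 572 to 1240 and 331 to 2751 CPM, the latter in mouse 17 and at most 1021 CPM in the other lungs. Of these, the macrophage genes C1qa (21.6 to 75.9 and 0 to 15.6 CPM) and Apoe (38.8 to 269 and 0 to 34.4 CPM) were higher in all tumors than in all lungs, and C1qc reached 75.9 CPM in the tumors and was at 0 in the lungs. The lowest tumor value and the highest lung value of C1qa were 1 UMI each. C1qb overlapped (0 to 145 and 0 to 78.5 CPM). So did Lyz2, Fcer1g, Tyrobp, Cst3 and Cd68, each with its highest value in the lungs. Csf1r was at most 9.69 and 17.2 CPM, and the neutrophil genes S100a8 (0 to 48.4 and 0 to 1094 CPM) and S100a9 (0 and 0 to 438 CPM) had their highest values in the lungs. Their part in the Cd74 values was not tested.

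Itm2c, a membrane protein that also marks plasma cells, had 649 to 1121 CPM in the tumors and 78.5 to 413 CPM in the lungs (log2 difference 2.07 ± 0.55, SE). Vmp1, which acts in autophagy, had 291 to 891 and 0 to 138 CPM. Cyba, a subunit of the NADPH oxidase, had 1560 to 3523 and 636 to 1335 CPM. Pkm, the last enzyme of glycolysis, had 1095 to 1898 and 236 to 928 CPM. In each of these the lowest tumor was above the highest lung, and adjusted p was between 0.404 and 0.540 by edgeR.

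The remaining 4 include pseudogenes that share sequence with other genes. Tmsb10, a thymosin that binds actin, had 3688 to 5111 CPM in the tumors and 422 to 2976 CPM in the lungs. Gm3788 (3837 to 6429 and 469 to 3141 CPM) is a processed pseudogene that shares 80.2% of its 31-base words with Tmsb10, so that both may report the same transcript. Gm29216 (853 to 1949 and 1616 to 13034 CPM) is a pseudogene that shares 97.2% of its words with the mitochondrial gene mt-Co1. Its log2 difference was -1.58, and it was -0.74 without lung mouse 30, after which the lungs had 1616 to 3423 CPM, and 0.14 with sequencing batch as a term. Ramp1, a receptor partner of the neuropeptide CGRP, had 0 to 96.9 CPM in the tumors and 0 to 1185 CPM in the lungs. The last 2 overlapped between tumors and lungs.

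The defining genes of Tregs were also compared. Ctla4 had 810, 725, 863 and 765 CPM in the tumors and 422, 0, 0, 165 and 447 CPM in the lungs, without overlap (log2 difference 1.55 ± 0.65, SE, edgeR adjusted p = 0.815). Il2ra had 304, 290, 668 and 339 CPM in the tumors and 313, 0, 78.5, 0 and 206 CPM in the lungs (1.30 ± 0.76, adjusted p = 0.815, edgeR). With sums of 10 or more Tregs the differences were 0.75 for Ctla4 and 0.61 for Il2ra, the lowest over 19 and 18 settings, and the highest were 1.95 and 1.88. Foxp3 had 177, 559, 173 and 262 CPM in the tumors and 313, 0, 157, 2480 and 464 CPM in the lungs (-1.06 ± 0.77, adjusted p = 0.884, edgeR). The 2480 CPM of mouse 31 came from 30 UMIs in 2 of 5 cells, and without that mouse the difference was 0.034. Of these 2 cells, the one with 12 Foxp3 UMIs also held 9 Cd8b1 UMIs, and whether it holds RNA of more than 1 cell was not tested. Over 17 settings the Foxp3 difference was between -2.90, with sequencing batch as a term, and 0.034. The fit with batch takes its difference from mice 8, 31 and 36, and so includes the 2480 CPM of mouse 31. Of the receptors that led the label, Tnfrsf4 differed by 0.17 ± 0.38 and Tnfrsf18 by 0.23 ± 0.37 on the log2 scale (SE, edgeR adjusted p = 0.988 and 0.981).

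**Figure D5:**
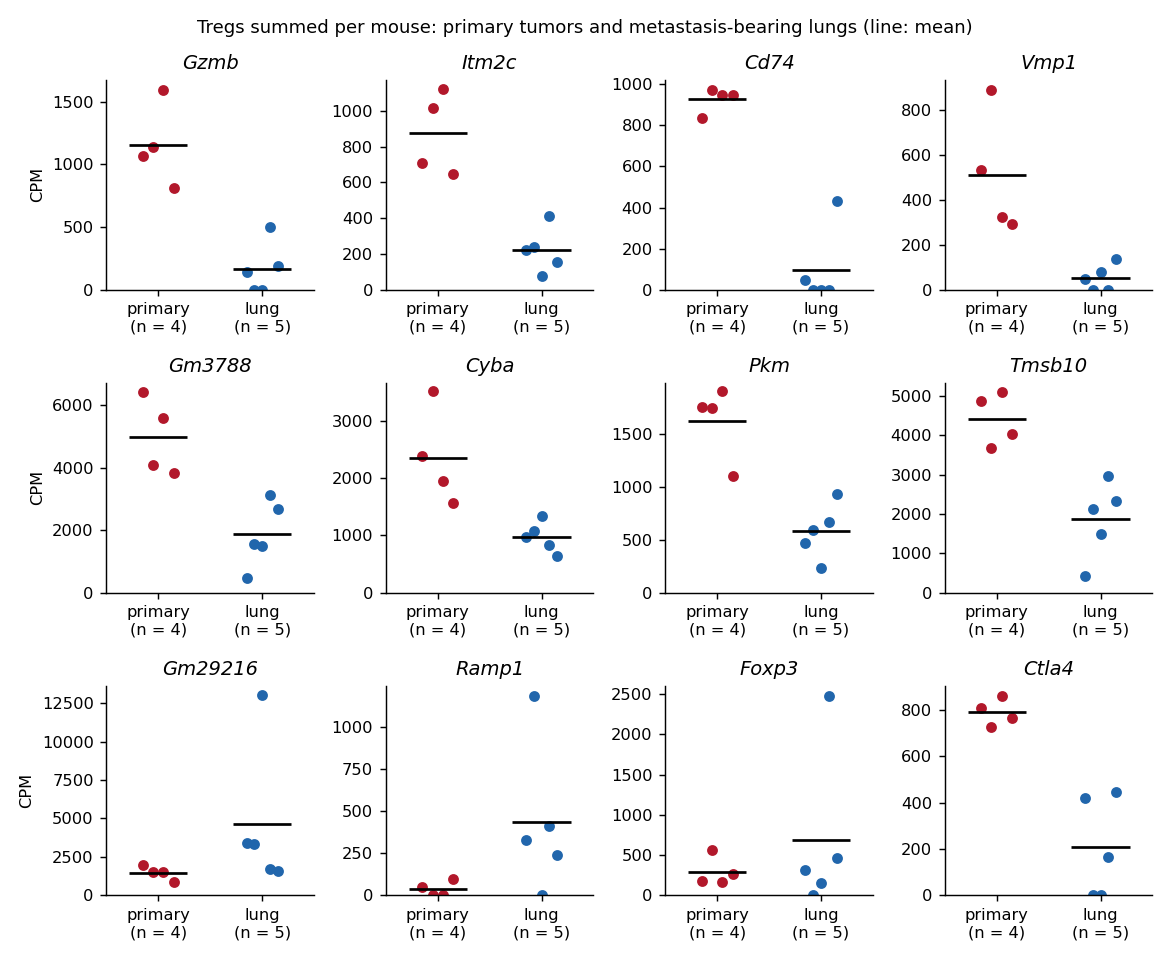
Expression in CPM (vertical axes, from 0) of the 10 genes with the smallest unadjusted p and of Foxp3 and Ctla4, in Tregs summed per mouse. Red points are 4 primary tumors, blue points 5 metastasis-bearing lungs and lines the means. For Gzmb the tumors lie between 814 and 1596 CPM and the lungs between 0 and 496 CPM.

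By list, the tested genes are given as counts, beside a median log2 difference of 0.05 over all 930 genes. Of the Treg identity list 7 of 19 genes were tested, 0 were called, and the median was 1.02, with Ikzf2 at 1.43 ± 0.55 and Capg at 1.02 ± 0.57 (SE). Of the effector Treg list 18 of 28 were tested, 0 were called and the median was 0.42. Its most abundant members were Lgals1 (0.40 ± 0.40), Tnfrsf4, Tnfrsf9 (-0.11 ± 0.46) and S100a6 (0.41 ± 0.52). Of the co-stimulation and checkpoint list 11 of 16 were tested and 0 called, with a median of 0.17. Of the naive and recirculation list only Il7r, the interleukin-7 receptor, had enough counts to be tested (1.96 ± 0.76, adjusted p = 0.761, edgeR).

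The other lists were not called in any member either. The median was 0.79 for 7 genes of cytokines and their receptors, with Il2rg at 0.96 ± 0.44, and 0.69 for 5 chemokine receptors and adhesion molecules. It was 0.51 for 16 interferon response genes, led by Ifi27l2a (0.28 ± 0.35), and 0.58 for 7 genes of glycolysis and hypoxia. It was -0.19 for 11 immediate early and heat shock genes, -0.17 for 7 cell cycle genes, -0.00066 for 31 ribosomal protein genes and -0.39 for 12 mitochondrially encoded genes. The summed glycolysis and hypoxia genes reached 5484 to 9768 CPM in the tumors and 4265 to 5418 CPM in the lungs, without overlap. Of its 7 tested members, 1 had groups apart, and the sums of all other lists overlapped.

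Depth and other cells were looked at beside this comparison. The median of UMIs per Treg in a mouse was 2151 ± 748 (SD, n = 4) in the tumors and 1708 ± 666 (SD, n = 5) in the lungs (two-sided exact permutation test, p = 0.373). The mitochondrially encoded genes summed to 17625 to 22189 CPM in the tumors. In the lungs they had 16230 CPM in mouse 25 and 25927 to 29052 CPM in the other mice, above all tumors. Erythroid genes were at 0 in all tumor sums and up to 781 CPM in the lungs. NK genes summed to at most 9.69 and 125 CPM, with Ncr1, Klrb1c and Eomes at 0 in all sums, and Cd8a with Cd8b1 up to 48.4 and 744 CPM. The lung epithelial list was at 0 in the tumors and up to 15.6 CPM in the lungs, the tumor epithelial list up to 127 and 34.4 CPM, and the stromal list up to 124 and 156 CPM. The part of these values in the differences was not tested.

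The last comparison asked whether the difference between organs was another in Tregs than in the CD4 Lef1 and CD4 S100a4 cells of the same mice. These are called CD4 cells after their labels. Over the sums per sample, CD4 Lef1 cells had medians of 174 CPM of Cd4, 260 CPM of Cd8a and 593 CPM of Cd8b1. In CD4 S100a4 cells these were 222, 0 and 41.0 CPM. How many cells of these labels are CD8 cells was not tested. Of 1663 genes tested for the interaction of cell type and tissue, 0 passed (0% called, edgeR quasi-likelihood test), and 46 had an unadjusted p below 0.05. That fit had no term for the mouse, and the interaction p values given below come from it. With the mouse as a block, again 0 passed and 58 had an unadjusted p below 0.05. In the fit without a block, the smallest unadjusted p was that of the survival gene Bcl2 (edgeR adjusted p = 0.525).

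In the CD4 cells themselves, 7 of 2738 genes (0.256%) passed between primary tumor and lung. Higher in the tumor were Ikzf2 (log2 difference 2.98 ± 0.58, SE, edgeR adjusted p = 0.0089), Pkm (1.83 ± 0.42, adjusted p = 0.0368, edgeR), the secreted protein Spp1 (3.82 ± 0.76) and Gm10800 (3.35 ± 0.63). Lower were the ribosomal gene Rpl35 (-2.97 ± 0.62), Gm4342 (-3.15 ± 0.73), which shares 54.6% of its 31-base words with Rpl35, and Gm10059 (-3.44 ± 0.72), which shares 51.8% with Rps29. These 7 genes were chosen after their values were seen. The calls moved with sequencing batch: with batch as a term, added after seeing the data, 2 genes passed, Ikzf2 (4.10, adjusted p = 0.0129, edgeR) and Spp1 (6.12, adjusted p = 0.00489, edgeR), while Gm10800 was at -0.56, Rpl35 at -0.89, Pkm at 1.25, Gm10059 at -1.53 and Gm4342 at -1.95. That fit rests on the batch with the tumor of mouse 8 and the lungs of mice 31 and 36, although 8 of the 47 CD4 cells of mouse 31 came from another batch. It holds 1 tumor, so that its test takes the spread from the lungs of this batch and from the other batches, and mouse 8 had the highest CPM of Ikzf2 (1408) and Spp1 (948) among the CD4 cells of the tumors. There Gm10800 had 163 CPM in the tumor and 124 and 265 CPM in the lungs, and Rpl35 had 135 CPM in the tumor and 336 and 143 CPM in the lungs. Leaving out 1 mouse gave 3 to 21 genes, 3 without lung mouse 17, lung mouse 30 or tumor mouse 10, 12 without lung mouse 36, 21 without tumor mouse 8, and 4 without lung mouse 25, tumor mouse 9 or tumor mouse 38. Ikzf2 passed in each of the 9 fits that left out a mouse. Over these fits and the one with batch, Gm10800 passed in 8 of 10, Rpl35 in 5 of 10 and Pkm in 2 of 10, without lung mouse 36 and without tumor mouse 8. Spp1 passed in all 6 of the fits in which it had enough counts to be tested, Gm10059 in 3 of 9 and Gm4342 in 2 of 6.

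In Tregs Pkm differed by 1.45 ± 0.46 and Ikzf2 by 1.43 ± 0.55 (SE), with an unadjusted p of the interaction of 0.591 and 0.0896 (edgeR). The smallest unadjusted interaction p of the 7 genes were 0.047 for Spp1 (-2.62) and 0.0514 for Gm10800 (-2.54), and the adjusted p was 0.999 for each of the 7 (edgeR).

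Ikzf2 had 1408, 702, 700.4 and 269 CPM in the CD4 cells of the tumors and 183, 0, 120, 0 and 105 CPM in those of the lungs. In Tregs of the same mice it had 1215, 2839, 2092 and 2083 CPM in the tumors and 594, 0, 471, 909 and 1547 CPM in the lungs. Tumor Tregs exceeded tumor CD4 cells in 3 of 4 mice. Among the CD4 S100a4 cells of primary tumors, 44.8% of 87 cells had a Cd3 or T cell receptor UMI at a median of 1465 UMIs, against 95.1% of the Tregs there at 2084, and 32.2% had an Ikzf2 UMI. After thinning to 500 UMIs the Cd3 or T cell receptor shares were 34.5 and 80.2%. Whether other cells in the CD4 labels have a part in the CD4 values was not tested.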

How the data were processed

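The authors sorted cells into 384-well plates, sequenced 3' ends, mapped reads to mm10 with HISAT, left out multi-mapping reads and cells under 500 UMIs, and deposited raw UMI counts per well for 148 plates and a table of cell labels from metacell clustering. All plates share the same well barcodes, and doublets were treated by the sort gate alone. Tregs were joined to their wells and summed per mouse and tissue where a sample held at least 5. Expression was tested with edgeR 4.0.16 (R 4.3.3; quasi-likelihood, filterByExpr, TMM, Benjamini-Hochberg adjusted p under 0.05), with DESeq2 1.42.0 as an alternative. Shares were tested with two-sided exact permutation tests over mice. Tregs and CD4 cells came from the same mice. The main interaction fit had no term for the mouse, and a fit with the mouse as a block was an alternative. The deviations of the pairs from their group means correlated at 0.022 to 0.425 over 1953 genes. Mice are separate animals. The fit of tumor against lung was also run on simulated counts with known changes, and its outcome is not given here.

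The Tregs, the gene lists and the tests were chosen with earlier results of these data known. Genes were named as markers, as the 12 highest and 6 lowest with 1 sign in every sample, as the 10 with the smallest p where under 5 passed, and as the most abundant of a list. Gene positions and shared 31-base words come from GENCODE vM21, and the annotation version used for counting is not given in the sources used here. Lungs without metastasis gave no sum of 5 Tregs, so they were not compared with metastasis-bearing tissue in expression.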

Additional observations from a re-analysis of the deposited data

Results flagged for a closer look

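In 17 of 69 groups of 4 to 10 samples, the sample at 1 end lay apart from the rest by Dixon's test. For normally distributed values chance does so in about 1 of 20 groups. That rate does not hold where the other samples of a group have no UMIs, since any UMI then sets a sample apart. The NK list in the tumor Tregs of mouse 38 was flagged on 1 UMI. Whether 17 of 69 groups is more than chance gives was not tested. Many of these groups rest on few UMIs and on the same mice. The values are given without an explanation.

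Among single genes in Tregs of the lung, Cd74 had 430 CPM in mouse 36 and 0 to 46.9 CPM in the others. Gm29216, the copy of mt-Co1, had 13034 CPM in mouse 30 and 1616 to 3423 CPM in the others. Foxp3 had 2480 CPM in mouse 31 and 0 to 464 CPM in the others. In primary tumors, Il2ra had 668 CPM in mouse 10 and 290 to 339 CPM in the others. The share of Tregs in the MET Invasive margin was 8.52% in mouse 36 and 0 to 3.51% in the others.

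In mouse 30 the lung Tregs, a sum of 6 cells, had 6124 CPM of the effector Treg list against 15612 to 18267 CPM in the other lungs. They had 6438 CPM of the co-stimulation and checkpoint list against 11018 to 12411 CPM. In mouse 38 the tumor Tregs had 6027 CPM of the cell cycle list against 1380 to 2010 CPM in the other tumors, and 543 CPM of the naive and recirculation list against 1620 to 1768 CPM. In mouse 25 the lung Tregs had 16230 CPM of mitochondrially encoded genes against 25927 to 29052 CPM.

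Markers of other cells stood apart as well. The myeloid list had 2751 CPM in the lung Tregs of mouse 17 against 331 to 1021 CPM, the stromal list 156 CPM there against 0 to 17.2, and the lung epithelial list 15.6 CPM there against 0. The CD8 genes had 744 CPM in the lung Tregs of mouse 31 against 0 to 78.5 CPM, and 48.4 CPM in the tumor Tregs of mouse 38 against 0. The NK list had 9.69 CPM in the tumor Tregs of mouse 38 against 0. The tumor epithelial list had 34.4 CPM in the lung Tregs of mouse 36 against 0.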

How the results depend on the processing

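Of the 930 genes none passed between primary tumor and lung, and the count was 1 with sums of 10 or more Tregs (Fos, lower), 2 with MET Core alone (Chchd10 and Gzmb), 3 with cells thinned to 500 UMIs (Gm3788, Gzmb and Tmsb10), and 0 to 1 leaving out a mouse (Gzmb without lung mouse 31, Cd74 without lung mouse 36). It was 0 with DESeq2, RLE factors, no filter, a batch term, separate or pooled lung sums and cells of at least 1000 UMIs. Without the filter the median log2 difference of all genes was 0.31, against 0.05. Gm29216 turned to 0.14 with a batch term. Foxp3 was at -2.90 with a batch term and between -1.49 and 0.034 leaving out a mouse, 0.034 without lung mouse 31. In CD4 cells 7 genes passed, 2 with a batch term and 3 to 21 leaving out a mouse. With the mouse as a block in the comparison of Tregs with CD4 cells of the same mice, again 0 genes passed. With cells of at least 1000 UMIs the difference in share was 12.9 points for Primary and MET Core, which did not pass (adjusted p = 0.125, exact permutation test), while Primary and MET differed by 17.6 points and passed (adjusted p = 0.0182, exact permutation test, n = 4 and 7). No pass was possible there for 7.17 (MET and Distal normal tissue, 4 mice, smallest exact permutation p 0.125), -2.81 (MET Core and MET Invasive margin, 3 mice, 0.25), 1.84 (MET Core and MET, 5 mice, 0.0625) and 8.81 (MET Core and Distal normal tissue, 6 mice, 0.03125 before adjustment over 6 comparisons). With Foxp3 UMIs in place of the label, they were -0.0671 for MET and Distal normal tissue and 1.09 for MET Core and Distal normal tissue. With Foxp3 UMIs and only samples with at least 20 T cells, a setting chosen after seeing the data, they were 0.723, 1.56 and, for MET Core and MET, -0.154. None of these passed (exact permutation test, adjusted p = 0.656, 0.188 and 0.8125). MET Core and MET differed by 8.92 points over CD4 labels and Tregs and 1.32 over immune cells, both passing, and by 1.72 to 3.42 leaving out a mouse, passing without mouse 23 (3.42). Thinned to 500 UMIs, 11.7% of Tregs had a Foxp3, 11.7% an Il2ra and 18.4% a Ctla4 UMI. Of the 32 differences named between Tregs and other T labels, a pseudocount of 50 moved 9 by more than their SD over samples and turned Ccr7 (-0.19), lung sums turned Ccr7 (-0.50), primary tumor sums Entpd1 (0.0867) and 10 or more cells S1pr1 (0.25). The comparison of metastasis-bearing with other lungs was not run, since no sample of the latter held 5 Tregs. The cause of these changes was not tested. The smallest lung sum held 8441 UMIs, which limits what the expression tests can see.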
